A study of Mus musculus with 16 samples.

Results

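*Adgre1*, *Cd5l* and *Cd86* are markers of macrophage identity and activation, and they were taken by symbol from the 4943 genes of a table of m6A peaks in mouse peritoneal macrophages (PMs). The 3 genes carry 5 of its 7069 peaks, 1 for *Adgre1*, 1 for *Cd5l* and 3 for *Cd86*. *Adgre1* encodes F4/80, an adhesion G protein-coupled receptor used as the surface marker of mature mouse macrophages. *Cd5l* encodes CD5L, also named AIM, a secreted protein of the scavenger receptor cysteine-rich family that macrophages make and whose gene is a target of the nuclear receptor LXR. *Cd86* encodes B7-2, which, like CD80, binds CD28 and CTLA-4 on T cells and is a usual surface marker of macrophages activated by bacterial products.

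PMs were elicited with 3% thioglycolate for 3 days in sex-matched littermate mice of 6 to 8 weeks on a C57BL/6 background, either wild-type (WT) or Adap-/-, a constitutive knockout of the adaptor ADAP. The 4 groups were WT mock, WT LPS, Adap-/- mock and Adap-/- LPS, where LPS was given at 1 μg/ml for 6 h. A group held 2 replicates, sequenced as fragmented RNA (the input library) and as the fragments bound by an m6A antibody (the IP library), 16 libraries in all. Elicited PMs are a bulk population, so that fewer cells of a type and less RNA per cell cannot be told apart. The sources do not say whether the 2 replicates of a group came from separate mice, and p-values measure the spread between these libraries, which may be technical.

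The libraries matched their genotype labels on 2 peaks in the coding sequence of *Fyb1*, the gene of ADAP, where Adap-/- input libraries had at most 5 reads and WT input libraries at least 254. Total counts were between 2121313 and 4325961 per input library and between 5728590 and 19030373 per IP library. Of 18 macrophage lineage genes, 16 were in the table, and their summed input level was between 18841 and 22867 CPM (counts scaled to a common library size) in the 8 input libraries, whereas none of the B cell, T cell, eosinophil, mast cell, fibroblast and mesothelial markers had a peak. Since only transcripts with a peak are listed, a missing gene has no measured level. The Adap-/- IP libraries had at most 8 reads on these *Fyb1* peaks, except mock replicate 1 with 59 and 42. On LPS-responsive peaks 2 other IP libraries stood apart. On 261 peaks whose input rose over 20-fold with LPS, WT mock IP replicate 1 and Adap-/- mock IP replicate 2 held 17.7% and 14.5% of the LPS input level, whereas the other mock IP libraries held 1.19% and 1.73%, and the LPS IP libraries between 21.6% and 28.0%. On the same peaks, all mock input libraries were between 1.30% and 1.94%. The input comparisons do not use these 2 libraries.

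The peaks lie at different ends of the transcripts, as the table places them on GRCm39. *Adgre1* (ENSMUSG00000004730) has a peak on chromosome 17 from 57665715 to 57668730, which covers 5′UTR, start codon and coding sequence on the plus strand and begins 24 bases into the gene. *Cd5l* (ENSMUSG00000015854) has a peak of 150 bases on chromosome 3 from 87277844 to 87277994, in the 3′UTR and 386 bases from the end of the gene. *Cd86* (ENSMUSG00000022901), on the minus strand of chromosome 16, has a 3′UTR peak of 125 bases from 36424355 to 36424480, a peak of 75 bases with no region named from 36481674 to 36481749, and a start codon peak from 36481899 to 36486443. The *Adgre1* peak and the *Cd86* start codon peak, of 3015 and 4544 bases, belong to the 7.75% of peaks longer than 1000 bases, against a median of 175 bases.

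The first question was how the markers responded to LPS in the input RNA, where the level of a gene was the sum over its peaks in normalized CPM. *Cd86* rose in both genotypes, *Cd5l* fell in both, and *Adgre1* rose in Adap-/- PMs. The test called 59.2% of the 4742 genes tested in WT PMs (30.2% higher and 28.9% lower) and 54.5% in Adap-/- PMs (28.5% higher and 26% lower), so that a call by itself is common in these cells. With upper-quartile scaling the median of all genes shifted by −0.29 on the log2 scale in WT and by −0.28 in Adap-/- PMs, and the share of higher genes among those called went from 51.1% to 35.8% and from 52.2% to 34.9%. A change of scaling shifts all genes of a comparison by about the same amount. Values relative to that median were thus bound to stay nearly the same, and they do not check the calls.

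*Cd86* was at 7.42 and 12.9 CPM in WT mock PMs and at 76.4 and 69.0 CPM in WT LPS PMs. In Adap-/- PMs it was at 11.0 and 12.6 CPM after mock treatment and at 60.1 and 51.8 CPM after LPS. All LPS libraries lay far above all mock libraries, and in 37.5% of all genes in WT and 38.1% in Adap-/- PMs both LPS libraries were above both mock ones. The rise was 7.18-fold in WT PMs, which was 2.84 on the log2 scale (standard error, SE, 0.21, adjusted p = 4.79e-09 from edgeR), and 4.73-fold in Adap-/- PMs, with 2.24 (SE 0.20, adjusted p = 9.02e-08 from edgeR). Of all genes tested, 94.3% in WT and 92.9% in Adap-/- PMs had a lower log2 fold change. The response in Adap-/- PMs minus that in WT PMs was −0.60 (SE 0.31, 95% interval −1.26 to 0.05), and it did not pass the test (adjusted p = 0.458 from edgeR), in a comparison that called 1.64% of genes (0.358% higher and 1.29% lower). It was −0.23 without WT mock replicate 1 and −1.03 without WT mock replicate 2.

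*Cd5l* was at 139 and 158 CPM in WT mock PMs and at 108 and 121 CPM in WT LPS PMs. In Adap-/- PMs it was at 243 and 286 CPM after mock treatment and at 147 and 165 CPM after LPS. Within each genotype both LPS libraries lay below both mock libraries, which was so for 39.7% of all genes in WT and 39.1% in Adap-/- PMs. The log2 fold change was −0.38 in WT PMs (SE 0.12, adjusted p = 0.0150 from edgeR) and −0.76 in Adap-/- PMs (SE 0.12, adjusted p = 3.63e-05 from edgeR). The fall in WT PMs was small and lost its call with DESeq2 (adjusted p = 0.0574) and without WT LPS replicate 1 (−0.29) or WT mock replicate 2 (−0.31), with adjusted p between 0.000176 and 0.129 over all alternatives. The fall in Adap-/- PMs kept its call under every alternative, with values between −1.04 and −0.65.

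*Adgre1* had low counts, with 17 to 50 input reads per library. It was at 8.19 and 5.12 CPM in WT mock PMs, at 9.01 and 6.14 CPM in WT LPS PMs and at 7.61 and 8.01 CPM in Adap-/- mock PMs. These 3 groups overlapped. Both Adap-/- LPS libraries, at 14.1 and 15.3 CPM, lay above all others. They lay above both Adap-/- mock libraries in 38.1% of all genes and above both WT LPS libraries in 26.8%. The share of genes with both above all other libraries was not counted. The log2 fold change with LPS was 0.90 in Adap-/- PMs (SE 0.30, adjusted p = 0.0174 from edgeR) and 0.20 in WT PMs (SE 0.34, adjusted p = 0.653). The rise in Adap-/- PMs lost its call with DESeq2 (adjusted p = 0.0543), with upper-quartile scaling (0.63, adjusted p = 0.0802) and without Adap-/- LPS replicate 2 (0.85), Adap-/- mock replicate 1 (0.86) or Adap-/- mock replicate 2 (0.93), with adjusted p between 0.0134 and 0.0807 over all alternatives. The value in WT PMs turned sign with upper-quartile scaling (−0.09) and lay between −0.12 and 0.55 with each replicate left out. The difference between the LPS responses, 0.71 (SE 0.46, adjusted p = 0.578 from edgeR), did not pass the test and lay between 0.34 and 1.02 with each replicate left out.

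**Figure D1:**
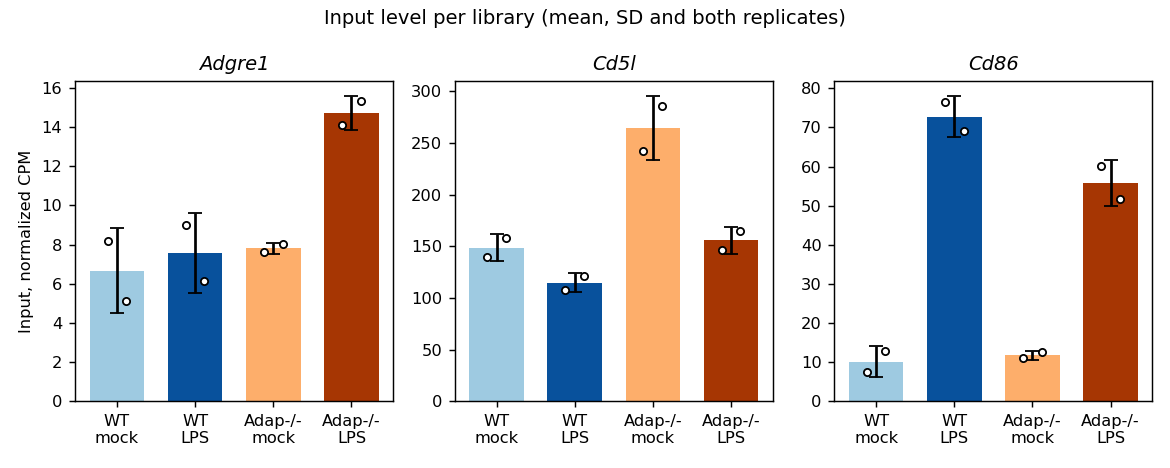
Input level of *Adgre1*, *Cd5l* and *Cd86* in normalized CPM (vertical axis, from 0) in the 4 groups. Bars are means, error bars SD over 2 replicates and circles the replicates. *Cd86* was at 51.8 CPM or more in every LPS library and at 12.9 CPM or less in every mock library, *Cd5l* was highest in Adap-/- mock PMs, and *Adgre1* in Adap-/- LPS PMs.

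The second question was which markers differed between the genotypes. *Cd5l* was higher in Adap-/- than in WT PMs, both without LPS and with it, while *Cd86* and *Adgre1* did not pass the test in either state. The comparison of Adap-/- with WT called 17.4% of genes in mock-treated PMs (8.71% higher and 8.65% lower) and 15.8% in LPS-treated PMs (6.03% higher and 9.78% lower). Each of these comparisons shares its libraries with the LPS comparisons above.

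*Cd5l* was 264 ± 30.9 CPM (SD, n = 2) in Adap-/- mock and 149 ± 13.1 (SD, n = 2) in WT mock PMs, a 1.78-fold difference. Both Adap-/- libraries lay above both WT libraries, as for 29.8% of genes without LPS and 26.8% with it. The log2 fold change was 0.83 (SE 0.12, adjusted p = 0.000253 from edgeR), above that of 96.2% of genes, and it kept its call under every alternative, with values between 0.71 and 0.95. In LPS-treated PMs the levels were 156 ± 13 and 115 ± 9.16 CPM (SD, n = 2), a 1.36-fold difference, with a log2 fold change of 0.44 (SE 0.12, adjusted p = 0.0233 from edgeR). The latter call was lost with DESeq2 (adjusted p = 0.0628), without Adap-/- LPS replicate 2 (0.36) and without WT LPS replicate 1 (0.36), with adjusted p between 0.00987 and 0.193 over all alternatives. The order of the groups was thus Adap-/- mock, Adap-/- LPS, WT mock and WT LPS, in which Adap-/- LPS and WT mock overlapped. The LPS response of *Cd5l* in Adap-/- PMs minus that in WT PMs was −0.39 (SE 0.17, adjusted p = 0.343 from edgeR), did not pass the test and lay between −0.49 and −0.25 with each replicate left out.

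*Prg4*, the gene of lubricin, was the only one of 10 markers of resident peritoneal macrophages in the table. It moved with *Cd5l* between the genotypes but not with LPS, where its log2 fold change was 0.67 in WT and 0.49 in Adap-/- PMs, neither of them called. It was at 50.9 and 27.2 CPM in WT mock, 155 and 311 in Adap-/- mock, 69.6 and 54.6 in WT LPS and 215 and 445 in Adap-/- LPS PMs. All Adap-/- libraries lay above all WT libraries. Within a state, both Adap-/- libraries lay above both WT libraries in 29.8% of all genes without LPS and in 26.8% with it. The log2 fold change of *Prg4* was 2.57 without LPS (SE 0.36, adjusted p = 0.000239 from edgeR) and 2.40 with LPS (SE 0.35, adjusted p = 0.000309 from edgeR). The part of resident macrophages in the *Cd5l* difference was not tested. Other defining genes of these cells, among them *Gata6* and *Timd4*, had no peak. Of 9 markers of recruited monocytes and small peritoneal macrophages, 2 were in the table and none was tested.

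*Cd86* was 10.2 ± 3.90 CPM (SD, n = 2) in WT mock and 11.8 ± 1.13 (SD, n = 2) in Adap-/- mock PMs, a log2 fold change of 0.23 (95% interval −0.32 to 0.78, adjusted p = 0.600 from edgeR). That value was −0.12 without WT mock replicate 1 and 0.67 without WT mock replicate 2. After LPS it was 72.7 ± 5.23 CPM in WT and 55.9 ± 5.88 CPM in Adap-/- PMs (SD, n = 2), and both Adap-/- libraries lay below both WT libraries, which was so for 29.8% of genes. The log2 fold change after LPS was −0.38 (95% interval −0.73 to −0.02, adjusted p = 0.149 from edgeR). *Adgre1* had a log2 fold change of 0.93 after LPS (95% interval 0.27 to 1.60, adjusted p = 0.0554 from edgeR), which just missed the threshold. It was called with peaks of 1 gene only (0.95, adjusted p = 0.0481), with the 4 libraries compared only (0.96, adjusted p = 0.0473) and without WT mock replicate 1 or 2 (0.95, adjusted p = 0.0402 and 0.0390), with adjusted p between 0.0390 and 0.266 over all alternatives. In mock-treated PMs its log2 fold change was 0.23 (SE 0.33, adjusted p = 0.691 from edgeR), 0.61 without WT mock replicate 1 and −0.06 without WT mock replicate 2.

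**Figure D2:**
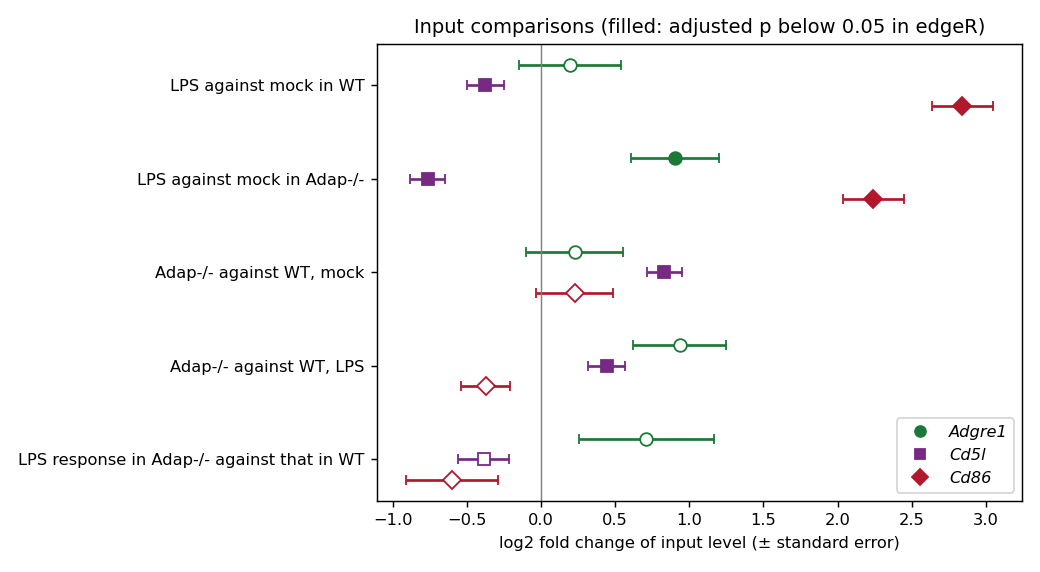
Log2 fold change of the input level (horizontal axis) with its SE (bars) for the 3 genes in 5 comparisons. Filled symbols have an adjusted p below 0.05 in edgeR. *Cd86* lies at 2.84 and 2.24 for LPS, *Cd5l* is filled in both LPS and both genotype comparisons, and no symbol is filled for the difference between the LPS responses.

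Levels of different genes were compared only per length, and only on short 3′UTR peaks, since the *Adgre1* peak is longer than 1000 bases. Per 1000 bases of peak, *Cd5l* was at 1516 ± 153 CPM (SD, n = 2) in WT mock and 2607 ± 308 CPM (SD, n = 2) in Adap-/- mock PMs, above 90.8% and 95.6% of 1172 such peaks. *Cd86* was at 115 ± 44.3 and 138 ± 11.5 CPM (SD, n = 2) per 1000 bases in the same groups, above 29.4% and 34.4% of these peaks. After LPS, *Cd86* reached 714 ± 57.2 CPM in WT and 542 ± 47.3 CPM in Adap-/- PMs per 1000 bases (SD, n = 2), and the percentiles were 77.4 and 73.0. *Cd5l* was then at 994 ± 71.9 and 1340 ± 86.7 CPM (SD, n = 2), at percentiles 82.2 and 86.7. The transcript of *Cd5l* was thus abundant in all groups, whereas that of *Cd86* went from the lower to the upper part of this range with LPS.

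The next question was whether the m6A signal of the 5 peaks changed, as the ratio of IP to input relative to the average peak of the table. CPM on single peaks come from a fit of all 16 libraries and are on another scale than the gene levels above. No member peak changed its ratio in any comparison, with adjusted p of 0.413 or more in edgeR. At the same threshold the test called 0% of 7058 peaks for LPS in WT, for LPS in Adap-/- and for Adap-/- against WT in mock-treated PMs, and 0.0142% (1 peak) for Adap-/- against WT after LPS. At an unadjusted p below 0.05 there were 763, 812, 148 and 503 peaks, and DESeq2 called 201, 117, 0 and 29 after adjustment. These counts are for the table as a whole, and a missing call does not show that the ratios were equal.

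On the *Cd5l* peak, IP CPM were 140 and 197 in WT mock, 89.6 and 88.1 in WT LPS, 219 and 160 in Adap-/- mock and 105 and 105 in Adap-/- LPS PMs. Input CPM on the same peak were 211 and 244, 142 and 157, 358 and 424, and 192 and 210. In every group both IP libraries lay below both input libraries. The share of all peaks with this order was not counted, so the order by itself does not set the peak apart. IP against input was −0.43 on the log2 scale in WT mock (adjusted p = 0.153 from edgeR), −0.75 in WT LPS (adjusted p = 0.0239), −1.04 in Adap-/- mock (adjusted p = 0.00472) and −0.94 in Adap-/- LPS PMs (adjusted p = 0.00628), each with an SE of 0.20. The peak was thus captured less than the average peak in 3 groups. IP against input was called for 20.7% of peaks in WT mock (9.56% higher and 11.2% lower), 24.1% in WT LPS (12.3% and 11.9%), 24% in Adap-/- mock (11% and 13%) and 30.3% in Adap-/- LPS PMs (15.9% and 14.4%). All 3 calls were lost when IP and input libraries were scaled apart, with values of −0.29, −0.47 and −0.50, and the value in WT mock PMs was then 0.13. The call in WT LPS PMs was also lost without either of its replicates (−0.83 and −0.66) or Adap-/- LPS replicate 1 (−0.72), and that in Adap-/- LPS PMs without either of its replicates (−0.98 and −0.86). Without Adap-/- mock replicate 2, the value in that group was −0.67 (adjusted p = 0.146). The ratio in Adap-/- against WT mock PMs was −0.61 (SE 0.29, adjusted p = 1.00 from edgeR), −0.26 without Adap-/- mock replicate 2 and −0.73 without WT mock replicate 1.

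On the *Adgre1* peak, IP CPM were 12.9 and 7.90 in WT mock, 14.0 and 15.1 in WT LPS, 16.9 and 7.12 in Adap-/- mock and 6.21 and 8.74 in Adap-/- LPS PMs. Input CPM were 12.4 and 7.90, 11.8 and 7.96, 11.2 and 11.9, and 18.4 and 19.5. Adap-/- LPS PMs therefore had the highest input, and their IP lay below that of both WT LPS libraries. IP against input was −1.35 there (SE 0.44, adjusted p = 0.0380 from edgeR) and did not pass the test in the other groups, with 0.02 in WT mock, 0.56 in WT LPS and 0.08 in Adap-/- mock PMs. The value in Adap-/- mock PMs was −0.68 without its replicate 1 and 0.63 without its replicate 2. The call was lost with IP and input libraries scaled apart (−0.91) and without either Adap-/- LPS replicate (−1.13 and −1.57) or either WT LPS replicate (−1.35 in both cases). The ratio in Adap-/- against WT PMs after LPS was −1.90 (SE 0.62), with 2.38% of peaks below it and an adjusted p of 0.557 from edgeR. With LPS in Adap-/- PMs it was −1.42 (SE 0.61, adjusted p = 0.413), −0.67 without Adap-/- mock replicate 1 and −1.98 without Adap-/- mock replicate 2.

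**Figure D3:**
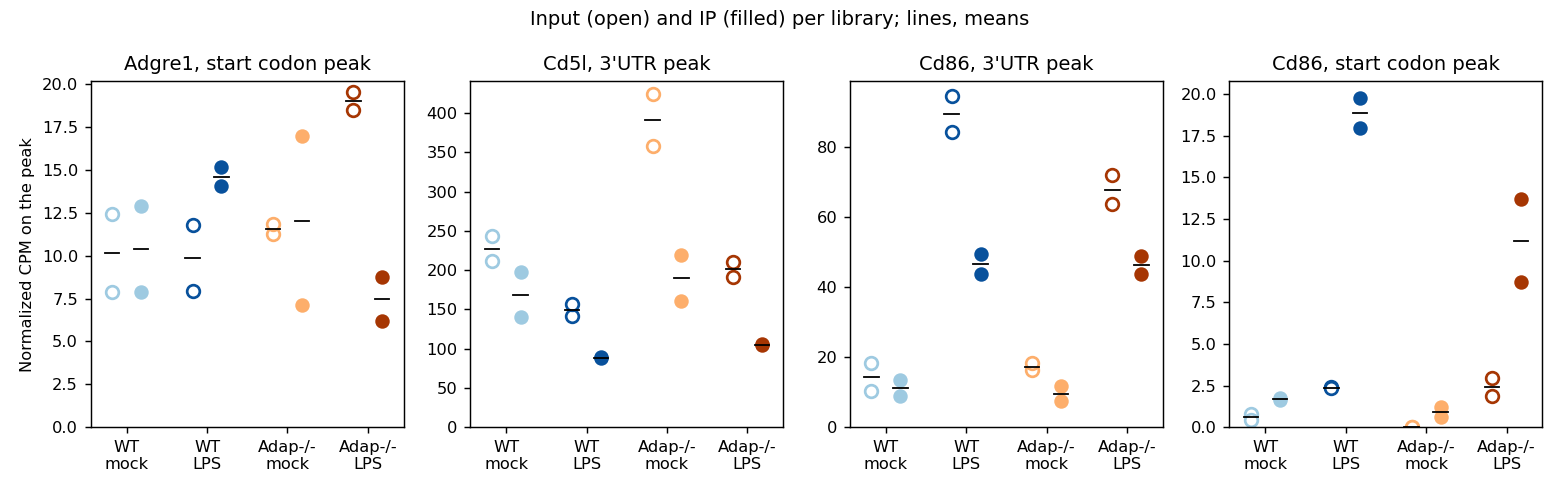
Normalized CPM (vertical axes, from 0) on 4 of the 5 peaks in each library, with input as open and IP as filled circles and lines at the means of 2 replicates. The IP circles lie below the input circles in every group on the *Cd5l* peak and above them on the *Cd86* start codon peak, where input was at most 2.95 CPM.

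*Cd86* was the only one of the 3 genes with peaks at both ends. On its 3′UTR peak, IP CPM were 13.6 and 8.81 in WT mock, 49.5 and 43.6 in WT LPS, 11.9 and 7.39 in Adap-/- mock and 43.6 and 48.7 in Adap-/- LPS PMs. Input CPM were 10.5 and 18.3, 94.4 and 84.2, 16.3 and 18.3, and 71.9 and 63.6. Both IP libraries lay below both input libraries in all groups except WT mock, an order whose share over all peaks was not counted. IP against input was −0.94 in WT LPS (adjusted p = 0.0336 from edgeR), and −0.36, −0.82 and −0.55 in WT mock, Adap-/- mock and Adap-/- LPS PMs, which did not pass the test. In WT mock PMs it was −1.05 without replicate 1 and 0.38 without replicate 2, and in Adap-/- mock PMs −1.25 without replicate 1 and −0.41 without replicate 2. The call in WT LPS PMs was lost with IP and input libraries scaled apart (−0.49) and with any replicate of the 2 LPS groups left out (−0.95 to −0.92), and Adap-/- mock PMs were called without WT mock replicate 1 (−0.81) or 2 (−0.79).

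On the *Cd86* start codon peak the order of IP and input was the opposite. With at most 8 input reads in any library, the peak did not pass the filter in the input libraries alone. It entered the fit through its IP reads, so that IP above input was favoured in advance and the calls are no independent evidence of capture. Reads in IP were 13 and 25 in WT mock, 119 and 285 in WT LPS, 13 and 9 in Adap-/- mock and 173 and 155 in Adap-/- LPS PMs, and reads in input were 2 and 1, 6 and 5, 0 and 0, and 8 and 4. As normalized CPM, WT LPS PMs had 17.9 and 19.8 in IP against 2.44 and 2.34 in input, and Adap-/- LPS PMs 8.73 and 13.7 against 2.95 and 1.86. IP against input was 2.97 on the log2 scale in WT LPS (SE 0.53, adjusted p = 0.00456 from edgeR) and 2.19 in Adap-/- LPS PMs (SE 0.52, adjusted p = 0.0106), where 12.3% and 15.9% of peaks were called higher. Among 477 peaks with the same annotation, the ratio of this peak lay above 96.0% and 93.1%. The 2 calls were lost only when a replicate of the group itself was left out, with 2.87 and 3.07 in WT LPS and with 1.56 without Adap-/- LPS replicate 2. In WT mock PMs the value was 1.49 (SE 0.68, adjusted p = 0.147), and it was called only with IP and input libraries scaled apart (2.03). It was also 2.03 without WT mock replicate 1 (adjusted p = 0.265) and 1.09 without WT mock replicate 2. Adap-/- mock input libraries had no read on the peak, which allows 1.16 and 1.08 CPM at 3 counts, and IP was at 0.650 and 1.21 CPM, so that no fold is given although the test called the peak (adjusted p = 0.0280). That call was lost with DESeq2 (adjusted p = 0.0611) and without any replicate of Adap-/- mock or WT LPS PMs, with adjusted p between 0.00743 and 0.224 over all alternatives.

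The share of *Cd86* reads on the 2 upstream peaks does not depend on the scaling of the libraries. Neither upstream peak passed the filter in the input libraries alone, so that a higher share in IP was favoured in advance. In WT LPS PMs it was 32.0% of 482 and 40.5% of 1056 reads in IP, and 5.69% of 246 and 5.76% of 191 reads in input. In Adap-/- LPS PMs it was 21.9% of 1106 and 26.7% of 753 reads in IP, and 8.45% of 213 and 3.52% of 142 reads in input. In both LPS groups the 95% Wilson intervals of IP, from 19.5% to 43.5%, and of input, from 1.51% to 13%, did not overlap. These intervals cover counting error only. In WT mock PMs the shares were 19.7% and 19.2% in IP against 6.90% and 8.33% in input, with overlapping intervals. In Adap-/- mock PMs replicate 1 had 8.11% in IP and 0 of 42 reads in input (interval up to 8.38%), and replicate 2 had 30.4% in IP and 1.92% in input. The IP libraries of this replicate 2 and of WT mock replicate 1 are the 2 with unusual LPS-responsive counts. Their part in the IP shares of the mock groups was not tested.

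The 2 WT LPS shares in IP lay above the 2 Adap-/- LPS shares. The ratio on the start codon peak in Adap-/- against WT PMs after LPS was −0.78 (SE 0.74, adjusted p = 0.949 from edgeR) and the value on the 3′UTR peak 0.39 (SE 0.40, adjusted p = 0.951), and neither passed the test. For LPS in WT PMs they were 1.48 (SE 0.94, adjusted p = 0.675) and −0.58 (SE 0.42, adjusted p = 0.712), and they were 0.96 and 0.13 without WT mock replicate 1, and 1.87 and −1.34 without WT mock replicate 2. For LPS in Adap-/- PMs the 3′UTR peak had 0.27 (SE 0.41, adjusted p = 0.858), −0.15 without Adap-/- mock replicate 2 and 0.70 without Adap-/- mock replicate 1. The peak with no region named had at most 10 input reads in any library and at most 143 IP reads, and its ratio did not pass the test in any comparison.

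**Figure D4:**
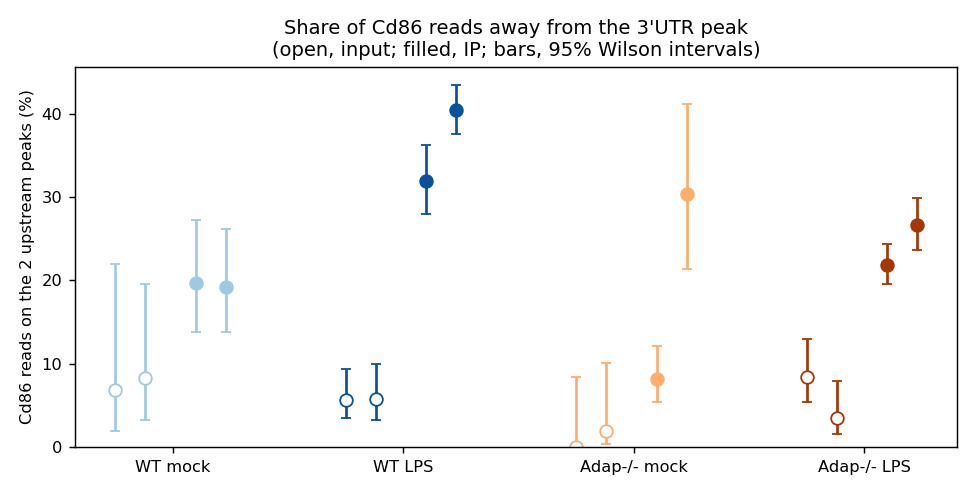
Share of *Cd86* reads on its 2 upstream peaks in percent (vertical axis, from 0) in each library of the 4 groups, with input as open and IP as filled circles and 95% Wilson intervals as bars. In both LPS groups the IP shares, 21.9% to 40.5%, lie above the input shares, 3.52% to 8.45%.

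Other genes of the same roles put these values in context, from lists that leave out the 3 genes. Of 15 costimulation and activation surface markers, 11 were tested and 9 rose with LPS in each genotype, with none lower. Of all genes, 30.2% were called higher in WT and 28.5% in Adap-/- PMs, and 28.9% and 26% lower. The median log2 fold change of the list was 2.96 in WT and 2.36 in Adap-/- PMs, against −0.03 over all genes in each. *Slamf1*, a self-ligand receptor of lymphocytes and macrophages, had no input read in any mock library and was at least 19.7-fold higher in WT and at least 31.2-fold higher in Adap-/- PMs, against a floor of 3 counts per library. *Cd69*, an early activation antigen, rose by 7.57 (SE 0.16) and 6.16 (SE 0.15) on the log2 scale, both with an adjusted p of 4.16e-14 or less. *Cd80*, which encodes B7-1, the close relative of B7-2, and *Pdcd1lg2*, which encodes PD-L2, did not pass the test and were picked out after their values were seen. *Cd80* had a log2 fold change of 0.14 in WT (SE 0.52) and −0.01 in Adap-/- PMs (SE 0.51), and *Pdcd1lg2* had 1.02 (SE 0.56) and 0.01 (SE 0.59). Their input levels were low, at 2.18 to 4.34 CPM for *Cd80* and 1.09 to 5.28 CPM for *Pdcd1lg2*, so a missing call does not show a missing response.

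In the same list, 3 of the 11 genes tested were lower in Adap-/- than in WT PMs after LPS and none was higher, at a median of −0.14. Of all genes, 9.78% were called lower and 6.03% higher in that comparison. *Cd69* had −1.09 (SE 0.10, adjusted p = 6.78e-06 from edgeR), *Cd83* −0.55 (SE 0.13, adjusted p = 0.00846) and *Cd40* −0.48 (SE 0.12, adjusted p = 0.0162). For *Cd69* and *Cd40*, which encodes a receptor for CD40 ligand, the LPS response itself was smaller in Adap-/- PMs, by −1.42 (SE 0.28, adjusted p = 0.0162) and −0.85 (SE 0.19, adjusted p = 0.0346). Of all genes, 1.29% were called lower there. *Cd86*, with −0.38 and −0.60 in these comparisons, passed neither test. In mock-treated PMs *Icam1* was higher (0.65) and *Cd83* lower (−0.63), where 8.71% of all genes were called higher and 8.65% lower.

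Of 16 macrophage lineage genes tested, 6 rose and 6 fell with LPS in WT PMs, where 30.2% of all genes were called higher and 28.9% lower. In Adap-/- PMs 6 rose and 5 fell, against 28.5% and 26% of all genes. The medians were −0.10 and −0.10, and the counts were not tested against those of all genes. *Fcgr1*, the high-affinity IgG receptor, rose by 3.20 and 2.31 on the log2 scale and *Cd14*, the LPS co-receptor, by 2.08 and 2.18. *Tyrobp*, the signalling adaptor DAP12, fell, with −0.72 and −0.49. In Adap-/- against WT PMs, 2 genes were lower without LPS (*Tyrobp*, −0.66, and *C1qb*, −0.54), where 8.65% of all genes were called lower. After LPS 6 were lower, among them *Fcgr1* (−1.28) and *C1qb* (−0.60), and *Cd14* was higher (0.49). Of all genes, 9.78% were then called lower and 6.03% higher.

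Few relatives of *Adgre1* and *Cd5l* were in the table. Of 20 other adhesion G protein-coupled receptors 3 were tested. *Adgre5*, which encodes CD97, fell with LPS (−2.41 in WT and −2.25 in Adap-/- PMs on the log2 scale), whereas *Adgrg6* rose by 1.80 and 1.76 and *Adgrl2* by 1.33 and 1.83, and none of them differed between genotypes at the threshold. Of 15 other scavenger receptor cysteine-rich genes 3 were tested. *Msr1*, the class A scavenger receptor, rose with LPS by 1.61 and 1.01 and *Lgals3bp* by 1.62 and 1.01. *Loxl3*, a lysyl oxidase with such domains, fell, with −1.13 (adjusted p = 6.10e-05 from edgeR) and −0.74 (adjusted p = 0.00403), as *Cd5l* did. Without LPS *Msr1* and *Lgals3bp* were higher in Adap-/- than in WT PMs, as *Cd5l* was, with 0.84 for *Lgals3bp* (SE 0.15, adjusted p = 0.00166 from edgeR) and 0.48 for *Msr1* (SE 0.12, adjusted p = 0.0117), and *Loxl3* was lower (−0.57). After LPS none of the 3 passed the test between genotypes.

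Of 18 other LXR and RXR genes and targets, 7 were tested. In Adap-/- against WT mock PMs *Abca1*, a cholesterol exporter, was higher (0.63, SE 0.10, adjusted p = 0.000731 from edgeR), and *Lpl* (−0.58) and *Abcg1* (−0.38) were lower. After LPS *Rxra* (0.55) and *Abca1* (0.36) were higher and *Mertk* (−0.32) lower. With LPS in WT PMs 2 rose and 4 fell, with *Mertk* at 1.60 and *Rxra* at −1.36, where 30.2% of all genes were called higher and 28.9% lower. In Adap-/- PMs 3 rose and 3 fell, against 28.5% and 26% of all genes. Of the MHC class II list 3 of 10 genes were tested, and *Ciita* (1.07 and 1.55) and *Cd74* (0.47 and 0.38) rose with LPS in WT and Adap-/- PMs. Of 13 alternative activation genes 4 were tested, and *Pparg* (−3.68 and −2.68) and *Arg1* (−2.22 and −2.33) fell, while *Tgm2* rose (1.46 and 1.49).

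Among markers of other cells in the exudate, *Csf3r* was the single neutrophil gene of 10 in the table and *Ccr7* the single dendritic cell gene of 8. *Csf3r* was at 123 to 164 CPM in mock and 306 to 388 CPM in LPS libraries, and *Ccr7* at 7.35 to 14.0 and 27.7 to 56.0 CPM. Both rose with LPS in each genotype, as *Cd86* did, where 30.2% of all genes in WT and 28.5% in Adap-/- PMs were called higher. Neither differed between genotypes at the threshold, and bulk data do not show which cells their reads came from. The part of neutrophils and dendritic cells in the *Cd86* response was not tested.

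**Figure D5:**
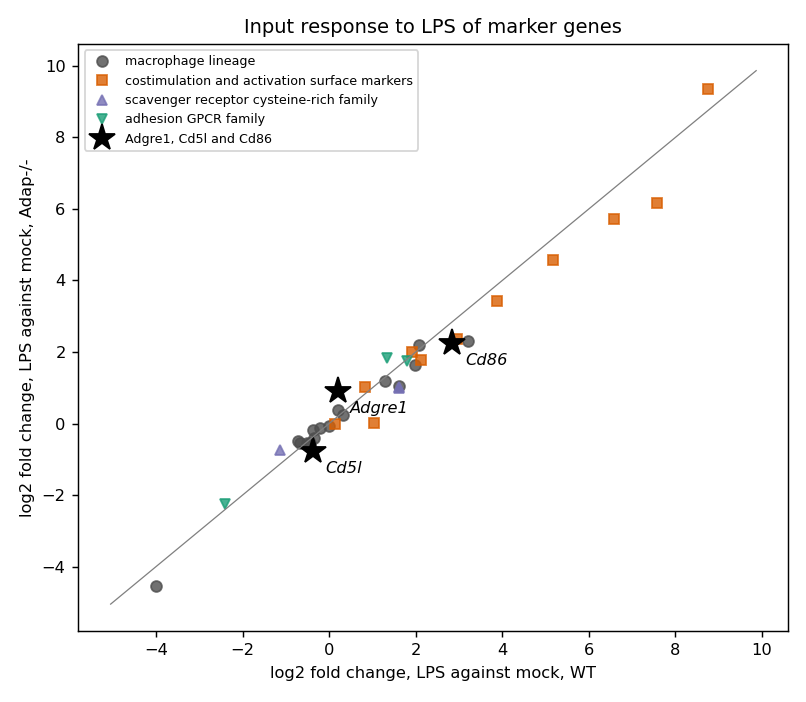
Log2 fold change of the input level with LPS in WT (horizontal axis) and Adap-/- PMs (vertical axis) for *Adgre1*, *Cd5l* and *Cd86* (stars) and the tested genes of 4 marker lists, with the line of equal response. *Cd86* lies among the costimulation markers below the line, at 2.84 and 2.24; the point farthest up is *Slamf1*, whose fitted value stands against mock libraries without a read.

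The genes most like each marker over the 8 input libraries were found by the root-mean-square difference of centred log2 CPM among 4741 genes. For *Adgre1* they were *Fcgr2* (0.16), ENSMUSG00000024298 (0.18) and *Dst* (0.20). For *Cd5l* they were *Lamc1*, ENSMUSG00000039262 and *Macf1*, each at 0.15. For *Cd86* they were *Traf5*, *Ralgds* and *Psme2*, each at 0.20. *Traf5* had log2 fold changes with LPS of 2.48 in WT and 2.19 in Adap-/- PMs. The 8 libraries are 4 groups of 2, so likeness here is mainly likeness of 4 group means.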

How the data were processed

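MeRIP-seq compares m6A antibody-captured RNA (IP) with input. RNA was cut to fragments before capture, and the authors used the Omicsmart platform. The submitters' processing notes name Bowtie2 2.2.8, MACS2 2.1.2, DiffBind 2.8 and GRCm39. The deposited table holds raw read counts on 7069 merged peaks in 16 libraries, and peak sequences were not analysed here.

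Input counts were summed per gene and fitted over the 8 input libraries with edgeR 4.0.16 in R 4.3.3 (TMM scaling, genes kept by filterByExpr at a count of 10 and 15 in total, the quasi-likelihood F test, p-values adjusted by Benjamini-Hochberg over 4742 genes and called below 0.05). IP-to-input ratios were fitted per peak over all 16 libraries (7058 peaks). Such ratios cannot show a change shared by all peaks. The Wilson intervals of read shares cover counting error only. The sources used here mention no molecular identifiers, so copies of the same molecule could not be told apart and these Wilson intervals may be too narrow. Intervals of the fold changes came from the SE of the edgeR fit, which includes the spread between libraries.

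The 3 genes and all lists were chosen with earlier results of these data known. From each list, at most 2 called genes per direction and comparison are named by size, beside counts of 5 or fewer and the genes most like each marker; 1 lineage gene is not reported by name here. Alternatives were DESeq2 1.42.0, other scalings, no filter, fewer libraries, peaks of 1 gene, single peaks, a replicate block and each replicate left out. The fits were tested on simulated data.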

Additional observations from a re-analysis of the deposited data

How the results depend on the processing

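Input levels of *Cd86* with LPS and of *Cd5l* in Adap-/- against WT mock PMs and with LPS in Adap-/- PMs kept their direction and their side of the threshold under all alternatives. With DESeq2, *Cd5l* with LPS in WT PMs was −0.35, *Adgre1* with LPS in Adap-/- PMs 0.92 and *Cd5l* in Adap-/- against WT LPS PMs 0.44, none of them past the threshold. With upper-quartile scaling *Adgre1* with LPS in Adap-/- PMs was 0.63. Its value relative to the median of all genes was 0.94 under either scaling, which is no check, since scaling shifts all genes about alike. *Adgre1* in Adap-/- against WT LPS PMs passed the threshold with peaks of 1 gene only (0.95) and with only the groups compared (0.96). With each replicate left out, *Cd5l* with LPS in WT PMs lay between −0.49 and −0.29, *Adgre1* with LPS in Adap-/- PMs between 0.85 and 0.97, *Adgre1* in Adap-/- against WT LPS PMs between 0.70 and 1.25, and *Cd5l* in the same comparison between 0.36 and 0.53. A group left with 1 library is assumed to vary like the others. DESeq2 gave no adjusted p for *Adgre1* in Adap-/- against WT mock PMs and for the difference between the LPS responses of *Adgre1* and *Cd86*. The cause of these changes was not tested.

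The correlation of the difference between replicates, IP against input, was −0.10 to 0.09 within groups, and −0.08 to 0.16 between the inputs of different groups. Such low values cannot show that the samples were unpaired. By the paper's methods part of the fragmented RNA was kept as input, so IP and input of a number may share RNA. The main fit left such a pairing out. With a replicate block, the input value of *Cd5l* in Adap-/- against WT mock PMs was 0.83, that of *Adgre1* with LPS in Adap-/- PMs 0.90, and no input call of the 3 genes changed. The block ended the calls of IP against input on the *Cd86* 3′UTR peak in WT LPS (−0.94, adjusted p = 0.0725) and on its start codon peak in Adap-/- mock PMs (adjusted p = 0.0710). For the IP-to-input ratio the block called 7 peaks for LPS in WT, 6 for LPS in Adap-/- and 0 for Adap-/- against WT after LPS, and with the WT mock numbers crossed, a setting chosen after seeing the data, 28, 31 and 1. No change of a member peak's ratio passed the threshold under any alternative. Genes called in Adap-/- against WT mock PMs were 823, and 308 without Adap-/- mock replicate 2, 437 without WT mock replicate 2 and 534 without Adap-/- mock replicate 1. After LPS they were 750, and 354 without Adap-/- LPS replicate 2 and 385 without WT LPS replicate 1. Genes with different LPS responses were 78, and 29 to 127 with a replicate left out. Peaks called for LPS in WT were 75 without WT mock replicate 2, and peaks called in Adap-/- against WT after LPS 14 without Adap-/- LPS replicate 2.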
